A study of Mus musculus with 4 samples.

Results

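Monocyte progenitors are bone marrow cells committed to becoming monocytes, the circulating phagocytes that enter inflamed tissue. Here they were chosen by reads of 4 monocyte genes, and 779 of the 19758 cells kept in the control, Mll3-deleted and Mll4-deleted libraries met the rule. A cell was a member when F13a1, Ms4a6c, Ccr2 and Ly86 together gave at least 10 of every 10000 gene UMIs (unique molecular identifiers, each standing for 1 captured RNA molecule). It also had to hold less than 200 per 10000 of the neutrophil granule genes S100a8, S100a9, Ngp, Camp, Ltf and Lcn2, less than 20 of the MHC class II genes Cd74, H2-Aa, H2-Ab1 and H2-Eb1, less than 5 of the platelet gene Pf4 and less than 5 of the B-lineage genes Cd79a and Ebf1. Cells were kept with 500 or more genes seen, a total of 1000 or more gene UMIs, and no more than 10% of UMIs from mitochondrial genes. These 17 genes chose the members, so their levels are given as descriptions.

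The cells were mouse bone marrow cells carrying the CD45.2 allele and the receptor Kit, taken 10 weeks after transplantation. RNA and surface antibodies were read in the same cells. There was 1 library for each of 4 genotypes, a control and deletions of Mll3, of Mll4 or of both (Mll3/4), with 27166 kept cells in all. Kmt2c encodes Mll3 and Kmt2d encodes Mll4, enzymes that add methyl groups to histone H3 at enhancers. The labels give no Cre driver, no strain and no number of animals, and do not say what the 2 hashtag antibodies mark. With 1 library a group there is no test of condition: every interval is a 95% interval that covers counting error only, and every difference is between libraries.

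Monocytes arise from granulocyte and monocyte progenitors, where the transcription factor Irf8 favours the monocyte fate and Gfi1 and Cebpe favour the neutrophil fate. Such progenitors still make the primary granule proteins Mpo, Elane and Prtn3. On the way to monocytes they take up Csf1r, the receptor for macrophage colony stimulating factor, Ly6c2, a surface protein of inflammatory monocytes, and Ccr2, the chemokine receptor that lets monocytes leave the marrow.

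The promoter windows of F13a1 and Irf8 are shown because F13a1 is a gate gene whose level differed between libraries and Irf8 is the monocyte regulator that the gate did not use. Both come from RefSeq on GRCm38.p6 and run from 250 to 11 bases before the start site. F13a1 lies on the minus strand and its window is chr13:37050255-37050494. Irf8 lies on the plus strand and its window is chr8:120736108-120736347. Capitals mark matches on either strand to the PU.1 core GAGGAA or to the C/EBP motif TTGCNNAA, which do not overlap here.
F13a1: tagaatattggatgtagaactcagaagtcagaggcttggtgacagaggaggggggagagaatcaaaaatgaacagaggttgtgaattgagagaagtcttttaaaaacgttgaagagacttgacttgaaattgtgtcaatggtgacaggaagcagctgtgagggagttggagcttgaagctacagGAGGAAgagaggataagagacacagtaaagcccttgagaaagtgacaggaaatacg
Irf8: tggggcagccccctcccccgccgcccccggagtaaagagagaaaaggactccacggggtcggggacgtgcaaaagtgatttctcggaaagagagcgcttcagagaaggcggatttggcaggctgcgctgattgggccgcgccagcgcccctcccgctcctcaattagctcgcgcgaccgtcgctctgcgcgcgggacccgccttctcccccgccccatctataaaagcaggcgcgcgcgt
The F13a1 window held 1 match, to the PU.1 core, which begins 66 bases before the start. No match to either motif was found in the Irf8 window. Among 32544 promoter windows of the same length, 22.4% held the PU.1 core and 9.31% the C/EBP motif. A match is a description of letters and not of binding.

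Depth and the targeted genes bear on all that follows. Members had a median of 23090 gene UMIs in control, 22295 with the Mll3 label and 6399 with the Mll4 label, and their summed UMIs were 4390019, 3365213 and 2875629. Levels are given as CPM, a gene's share of the UMIs summed over members, scaled to the same total in each library. Kmt2c read 36.9 CPM (interval 31.4 to 43.0) in control members and 25.6 (20.4 to 31.6) in Mll3-labelled members. Kmt2d read 28.9 CPM (24.1 to 34.4) in control members and 16.7 (12.3 to 22.1) in Mll4-labelled members. Each targeted gene was thus lower in the members of its own library in summed counts; after thinning members to 2000 UMIs, with few counts left, the log2 ratios to control were 1.10 and 0.054. Reads near the 3′ end may lie outside a deleted exon, so they check the labels only in part, and in the other kept cells of the Mll4-labelled library the log2 ratio of Kmt2d to control was 0.01. Xist read 1158 and 1101 CPM in control and Mll3-labelled members and 0 in Mll4-labelled members, where the Y-linked Eif2s3y read 76.5 CPM and was 0 in the others. The Mll4-labelled cells therefore differed in sex from the other libraries, and sex and the deletion cannot be told apart in any Mll4 comparison. No member shared its barcode with a member of another library, and 9 to 24 barcodes were shared between pairs of libraries over all cells.

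Members made up 2.43% of kept control cells (189 of 7768, interval 2.10 to 2.80). They were 2.29% of Mll3-labelled cells (145 of 6341, 1.93 to 2.69) and 7.88% of Mll4-labelled cells (445 of 5649, 7.19 to 8.61). The Mll3-labelled share lay within the counting interval of control, with a log2 ratio of -0.09 (-0.40 to 0.22). The Mll4-labelled share lay above it, with a log2 ratio of 1.69 (1.45 to 1.94). The same rule found 5 of 7408 kept cells in the library with both deletions, or 0.0675% (0.0219 to 0.157). Of its kept cells 7227 were B-lineage cells, with Cd79a and Ebf1 at 20 or more per 10000 and a monocyte sum under 10. Only 7 were granulocyte progenitors, so its share is not compared with those of the other libraries. The members of the first 3 libraries also differed in how far past the gate they lay. Their median sum of the 4 gate genes was 14.9 per 10000 in control, 15.7 with the Mll3 label and 21.5 with the Mll4 label.

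The Mll4-labelled excess was seen with either hashtag, though not to the same size. Among cells with Hashtag1 only, members were 2.35% in control, 2.80% with the Mll3 label and 9.71% with the Mll4 label. Among cells with Hashtag2 only, they were 2.63%, 1.96% and 6.48%. The Mll3-labelled ratio to control was above 0 with Hashtag1 and below 0 with Hashtag2, and the Mll4-labelled ratio was above 0 with both. Other settings moved the size of the Mll4 ratio. It was 1.26 on the log2 scale when every cell was thinned to 2000 UMIs before gating, and 2.35 when cells past the neutrophil granule limit were left out of the denominator.

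**Figure D1:**
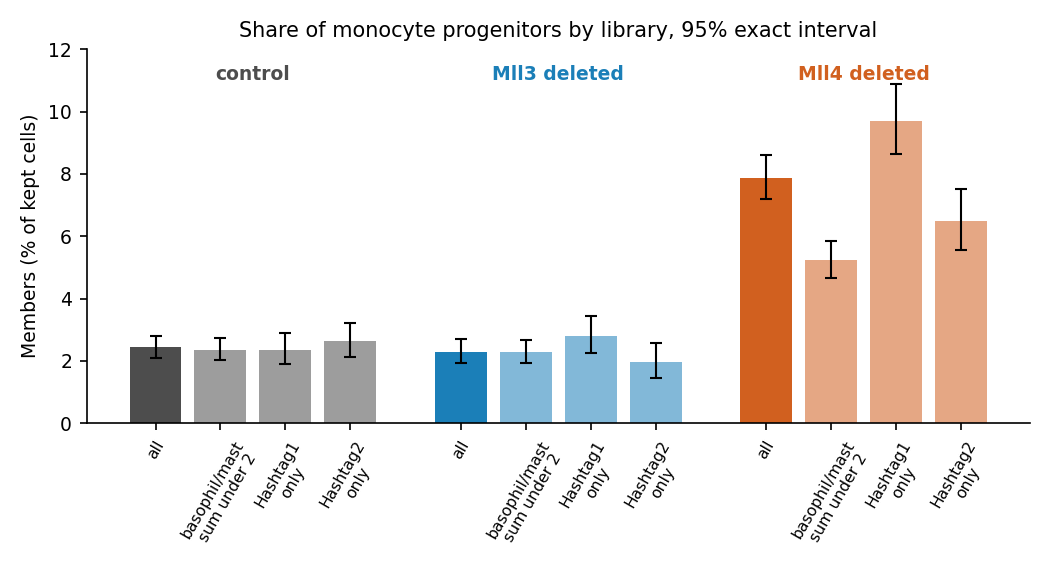
Members as a percentage of kept cells in each library (bars, with exact 95% intervals), for all members, for members with a basophil and mast sum under 2 per 10000 UMIs, and for cells carrying only Hashtag1 or only Hashtag2. The 4 bars of the Mll4-deleted library, from 5.22% to 9.71%, stand above those of the other libraries, which run from 1.96% to 2.80%.

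A share of the Mll4-labelled members also read genes of another lineage. The summed level of 10 basophil and mast cell genes was at least 2 per 10000 UMIs in 150 of 445 Mll4-labelled members (33.7%, interval 29.3 to 38.3), against 6 of 189 in control (3.17%) and 1 of 145 in the Mll3-labelled library (0.69%). The limit means different numbers of UMIs at different depths: 16 of the 150 passed it with 1 UMI and 28 with 2. Thinned to 2000 UMIs, 9.52%, 14.6% and 28.2% of members had at least 1 UMI of the list, and 0.53%, 0% and 16.3% had at least 2. In Mll4-labelled erythroid cells these shares were 27.2% and 5.0%, and in Mll4-labelled granulocyte progenitors 36.3% and 18.3%. For the 150 cells the name monocyte progenitor is therefore in doubt. Without such cells the member share was 2.36% in control, 2.27% with the Mll3 label and 5.22% with the Mll4 label (4.66 to 5.83), and the Mll4 log2 ratio was 1.15 (0.89 to 1.41). The limit of 2 was set after the data were seen, and counts of genes below are also given without these cells where a call changes.

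Over all members the list summed to 46.5 CPM in control, 40.7 with the Mll3 label and 655 with the Mll4 label. Prss34, Cma1 and Tpsb2 had no UMI in control members, and these 3 with Cpa3, Fcer1a and Il1rl1 had none in Mll3-labelled members. In the Mll4-labelled members all 10 had UMIs. Cpa3, the carboxypeptidase of mast cell granules, read 2.28 CPM in control, 0 in Mll3-labelled and 381 in Mll4-labelled members. After thinning to 2000 UMIs, Cpa3 was seen in 18.2% of Mll4-labelled members, against 3.1% of the B-lineage cells and 2.5% of the erythroid cells of the same library, which should lack it; unthinned shares were 30.1%, 6.1% and 9.9%, at median depths of 6399, 1974 and 17302 UMIs. The Cpa3 share of members was thus above that of these populations, but not above that of the granulocyte progenitors of the library, at 19.3% thinned and 30.7% unthinned. In those progenitors the basophil and mast list summed to 257, 153 and 430.0 CPM, so the signal was not particular to the members.

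The 150 cells differed from the other 295 Mll4-labelled members in genes that the split did not use. Irf8 read 195 CPM (166 to 228) with the signal and 437 (409 to 467) without it. Ly6c2 read 626 with it and 1675 without it. Klf4, a transcription factor of monocyte maturation, read 14.8 and 82.3. These 3 monocyte genes were thus lower in cells with basophil and mast reads, but not all genes of their list were. Ms4a6b read 193 CPM over all Mll4-labelled members and 169 over those without the signal, and Ms4a4c 58.4 and 48.4. The gate genes were closer, with Ccr2 at 399 and 469 CPM and F13a1 at 891 and 1153 with and without the signal. Ms4a6c, at 681 and 637, and Ly86, at 180 and 172, were not lower with it. Kit, the stem cell factor receptor kept by mast cells, read 304 CPM with the signal and 146 without. The primary granule genes split, with Elane at 3196 and 6046 CPM and Mpo at 8102 and 7455. The CD41 antibody had a median of 27.5 counts a cell with the signal and 8 without.

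**Figure D2:**
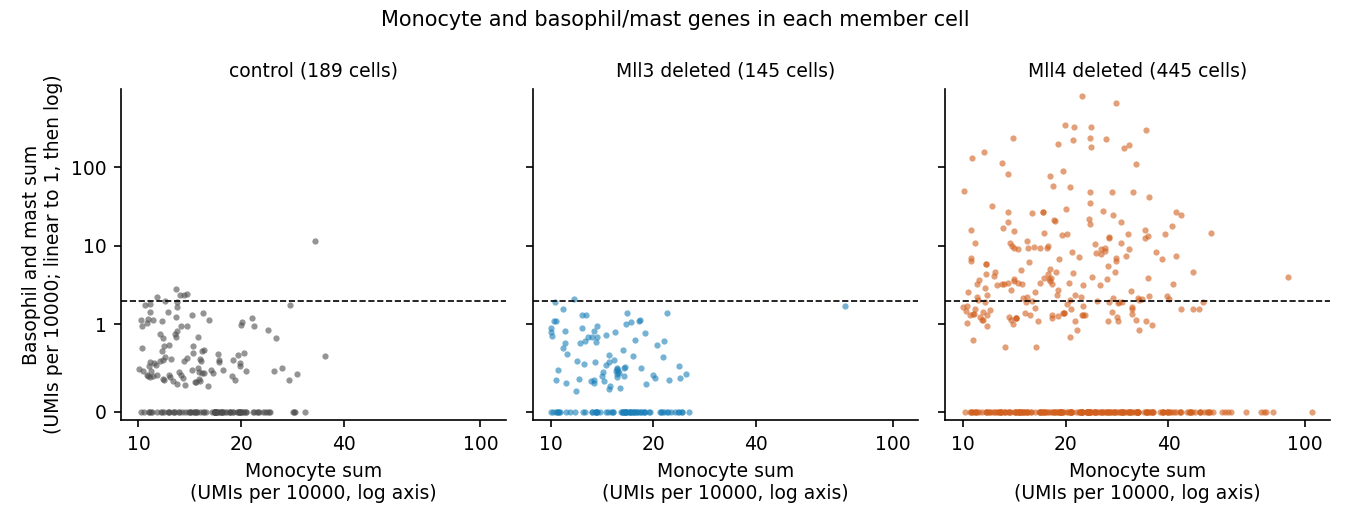
Each point is 1 member cell, with the summed UMIs of the 4 monocyte gate genes per 10000 on the horizontal log axis and the summed UMIs of 10 basophil and mast genes per 10000 on the vertical axis (linear up to 1, then log). The dashed line marks 2 per 10000, reached by 6 control, 1 Mll3-deleted and 150 Mll4-deleted members.

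Among the gate genes, F13a1, the A chain of coagulation factor XIII (ENSMUSG00000039109, chromosome 13, 36867178 to 37050244, minus strand), read 508 CPM in control, 617 in Mll3-labelled and 1079 in Mll4-labelled members. Ccr2 (ENSMUSG00000049103, chromosome 9, 124101950 to 124113557, plus strand) read 168, 127 and 449 CPM. Ms4a6c, a membrane protein of the MS4A family (ENSMUSG00000079419, chromosome 19, 11469366 to 11482192, plus strand), read 703, 666 and 650. Ly86, the MD-1 partner of the receptor RP105 (ENSMUSG00000021423, chromosome 13, 37345208 to 37419036, plus strand), read 195, 149 and 175. So F13a1 and Ccr2 were highest in Mll4-labelled members and Ms4a6c and Ly86 were not. Their log2 ratios to control, computed as all such ratios with 1 CPM added to each level, were 1.09 for F13a1, 1.42 for Ccr2, -0.11 for Ms4a6c and -0.16 for Ly86. Positions of genes come from GENCODE M21 on GRCm38.

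Irf8 was lowest in the Mll4-labelled cells on both sides of the threshold. Members with a sum of 10 to 12 per 10000 numbered 43, 27 and 48, and read 414, 360 and 214 CPM of Irf8 in control, Mll3-labelled and Mll4-labelled cells. Cells just outside, at 8 to 10, numbered 50, 40 and 49 and read 315, 340 and 142. In each library the range just outside the threshold thus held at least as many cells as the range just inside.

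Irf8, which the rule did not use (ENSMUSG00000041515, chromosome 8, 120736358 to 120756694, plus strand), read 503 CPM (483 to 525) in control members, 482 (459 to 506) in Mll3-labelled members and 369 (347 to 392) in Mll4-labelled members. Granulocyte progenitors, here cells with Elane and Prtn3 at 20 or more per 10000 and a monocyte sum under 10, read 72.1, 70.2 and 51.8 CPM of it. All other kept cells of the libraries, which include those progenitors, read 18.3, 19.5 and 24.3. Irf8 was thus higher in members than in either pool in each library. The log2 ratio of Irf8 to control was -0.06 in Mll3-labelled members and -0.45 in Mll4-labelled members, where it was -0.21 without the basophil and mast signal.

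Other genes outside the gates marked the same cells. Ranked by their smallest log2 ratio of members to all other kept cells over the 3 libraries, the first 20 genes included Itga1, Csf1r, Tifab, Irf8, Met, Klf4, Gria3, Ifi209, Ms4a4c, Il6st, Ms4a6b, Emb and Hpse. Csf1r read 69.5 CPM in control, 74.3 in Mll3-labelled and 83.1 in Mll4-labelled members, against 2.24, 2.34 and 3.70 in the other kept cells. Il6st, the signalling chain of the interleukin 6 receptor, read 40.5, 54.1 and 41.0, against 3.59, 3.22 and 3.98. Itga1, the alpha 1 integrin, read 51.9, 60.9 and 318 CPM in members and 0.96, 1.37 and 8.94 in other kept cells. Itga1 was thus several times higher in Mll4-labelled than in control cells inside and outside the members.

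Members read primary granule genes at lower summed levels than granulocyte progenitors, which were chosen on Elane and Prtn3. The list summed to 21605, 19098 and 23439 CPM in members and 30734, 31152 and 28420 in granulocyte progenitors. Mpo, myeloperoxidase, read 5060.1, 4761 and 7637 CPM in members and 5732, 5468 and 8495 in granulocyte progenitors. Elane, neutrophil elastase, read 4596, 3573 and 5243 in members and 7588, 7829 and 5827 in granulocyte progenitors. Cebpe, which drives granule formation in neutrophils, set them further apart in control, at 19.1 CPM in members and 156 in granulocyte progenitors. Elane was also read in other cells. After thinning to 2000 UMIs, 31.6% of control B-lineage cells had a UMI of it, against 91.5% of control members. Unthinned shares were 58.8% and 98.9%, at median depths of 4076 and 23090 UMIs. Whether free RNA or doublets gave the B-lineage reads was not tested.

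**Figure D3:**
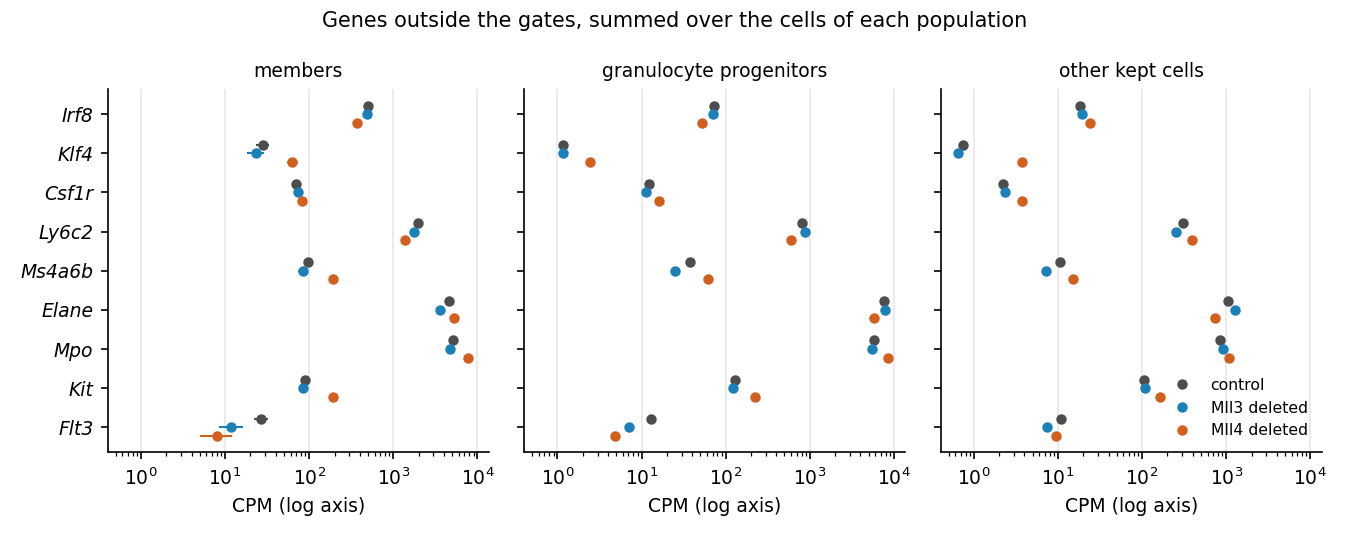
Levels in CPM (log axis) of 9 genes outside the gates, summed over members (left, with 95% counting intervals), granulocyte progenitors (middle) and all other kept cells (right), with 1 point for each library. Irf8, Klf4, Csf1r, Ly6c2 and Ms4a6b are higher in members than in either other population in every library, while Mpo is near the level of granulocyte progenitors.

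The surface proteins placed the members among CD34-bearing, CD48-bearing progenitors. CD34 had a median of 58, 77 and 36 antibody counts a member, against 8, 10 and 7 in the other kept cells. CD48, carried by most progenitors beyond the stem cell stage, had 912, 887 and 825 against 460, 387 and 179. Both were high in members of all 3 libraries, with 95.8%, 92.4% and 92.4% of members above the median CD34 of their own library and 95.8%, 96.6% and 99.1% above that of CD48. The Fc receptor antibody CD16_32, which defines granulocyte and monocyte progenitors, differed. It had a median of 277 in control members against 23 in other cells, 261 against 23 in the Mll3-labelled library, and 79 against 105 in the Mll4-labelled library.

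In the Mll4-labelled library the other cells carried more of the mature myeloid antibodies, which changes what a rank within that library means. CD11b had medians of 7, 5 and 201 in the other kept cells and 7, 6 and 5 in members. Gr1 had medians of 31, 34 and 203 in the other cells and 64, 91 and 65 in members. So the members were CD11b-low in all 3 libraries, and the other kept cells of the Mll4-labelled library were not. CD16_32 on Mll4-labelled members was 103 without the basophil and mast signal and 52 with it, and 93.7%, 91.7% and 41.8% of members lay above the median of their own library. CD117, the Kit protein, had medians of 206, 202 and 206 in members, while Kit RNA read 90.2, 84.4 and 191 CPM.

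**Figure D4:**
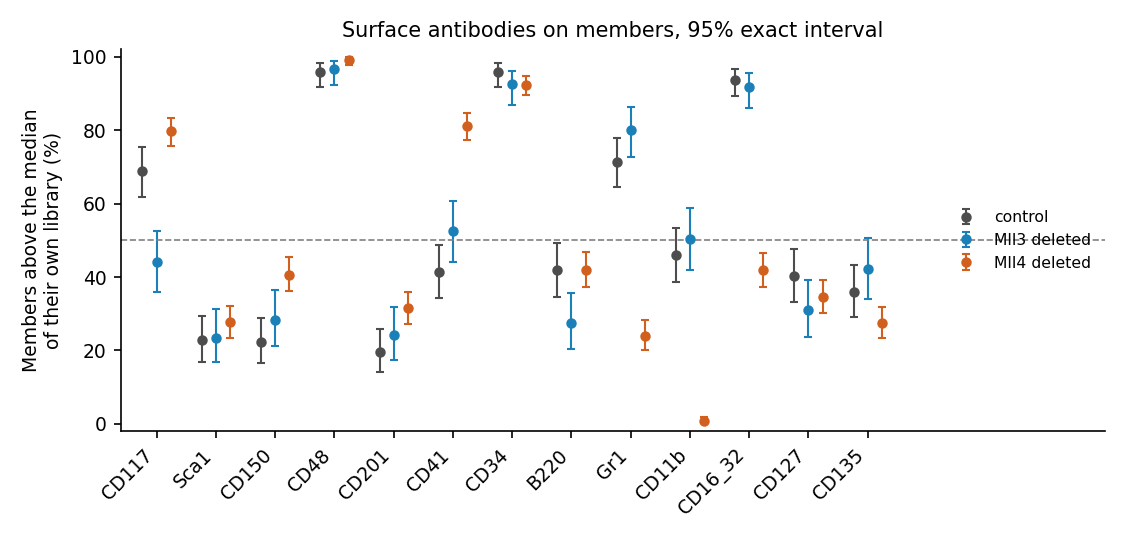
Percentage of members whose antibody count lies above the median of all kept cells of their own library, for 13 surface antibodies, with exact 95% intervals and a dashed line at 50%. CD48 and CD34 are above 90% in all 3 libraries, and CD16_32 is 41.8% and CD11b 0.67% in the Mll4-deleted library.

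Within the members, monocyte genes outside the gate were higher in the cells with more of the gate genes. Members at 10 to 20 per 10000 numbered 157, 122 and 199, those at 20 to 40 numbered 32, 22 and 199, and those at 40 or more numbered 0, 1 and 47. In control, Irf8 was 471 CPM in the first range and 700.4 in the next, while Elane was 4803 and 3352. In Mll3-labelled members Irf8 was 468 and 579 and Elane 3668 and 2987. In Mll4-labelled members Irf8 was 266, 441 and 565 CPM over the 3 ranges and Klf4 was 21.9, 91.0 and 149. Ly6c2 followed them at 1086, 1531 and 2198 CPM. So cells with more of the gate genes also read more of these monocyte genes that the gate did not use. Mpo went the other way in Mll4-labelled members, at 8346, 7441 and 4854 CPM, and Kit was 206, 193 and 95.4. Elane, lower with a higher sum in the other libraries, was 5167, 5315 and 5297 there. The highest range existed almost only in the Mll4-labelled library, which had shallower cells, and the part of depth in that was not tested.

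Between Mll3-labelled and control members few genes were far apart. Of 7157 genes with at least 50 counts in either library, 42 (0.587%) lay past 2-fold, 15 higher (0.21%) and 27 lower (0.377%), and the median log2 ratio was -0.01. Of these 42, 10 or 23.8% were past 2-fold the same way in the other kept cells of the same libraries. The share of all measured genes past 2-fold in those cells was not counted, so this overlap is not read as high or low. Without the basophil and mast signal 40 of 7076 genes (0.565%) were past 2-fold, 15 higher (0.212%) and 25 lower (0.353%).

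The genes highest in Mll3-labelled over control members included heat shock, histone and chemokine genes. Ccl5, a chemokine that attracts T cells and monocytes, read 6.83 CPM (4.61 to 9.76) in control, 30.3 (24.7 to 36.8) in Mll3-labelled and 7.30 (4.5 to 11) in Mll4-labelled members, and its log2 ratio of 2.0 stood beside 0.46 in other kept cells and 2.01 in granulocyte progenitors. Ifi30, a lysosomal thiol reductase of antigen processing, read 36.2, 83.5 and 23.6 CPM, with log2 ratios of 1.18 and -0.59. These genes were high in Mll3-labelled members and not in Mll4-labelled members. Hspa1a and Hspa1b, inducible heat shock proteins, had Mll3 log2 ratios of 2.09 and 2.25, and Mll4 ratios of 3.28 and 2.39. Hspa1b had 38 counts in control members and 151 in Mll3-labelled members, so it too passed that comparison only through the Mll3-labelled library. Pttg1, the securin of chromosome separation, and the histone gene Hist1h2ap had Mll3 ratios of 2.19 and 1.94 in members and 1.94 and 1.64 in other kept cells. For Pttg1 and Hist1h2ap the difference was thus nearly as large outside the members.

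Lower in Mll3-labelled members were Ifitm1, an interferon-induced membrane protein, and Flt3, a cytokine receptor of early progenitors and dendritic cell precursors. Ifitm1 read 99.5 CPM in control, 26.7 in Mll3-labelled and 15.3 in Mll4-labelled members, and its Mll3 log2 ratio was -1.86 in members and -0.41 in other kept cells. Flt3 read 26.9, 11.9 and 8.0 CPM, with log2 ratios of -1.11 and -1.63. Clec4d, a C-type lectin receptor for fungi and mycobacteria, read 14.4, 3.86 and 4.87. These genes were lower in both libraries than in control, which is the same set of cells in both comparisons. Flt3 and Clec4d passed the count minimum only through control in both comparisons, and Ifitm1 did so in the Mll4 comparison. That choice favours low ratios, so no shared direction is read from them. Gdf3 (-2.03), Prss16 (-1.99), Celsr1 (-1.66), Fnbp1l (-1.45) and Cnn3 (-1.45) were further genes with low Mll3 log2 ratios. Nutf2-ps1 and Rps27rt, which resemble other genes in sequence so that reads may be split between copies, had ratios of -1.46 and -1.41 in members and -1.53 and -1.31 outside them.

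Gene lists told of small shifts in Mll3-labelled members, of which 2 are described first. Of 11 measured primary granule genes 10 were below 0 and 1 above, beside 47.5% of all genes above 0. Their median log2 ratio was -0.38 against -0.01 over all genes. Nkg7 read 305 CPM in control and 152 in Mll3-labelled members, Srgn 1173 and 781, Elane 4596 and 3573, and Prtn3 5499 and 5511. The median was -0.11 after thinning to 2000 UMIs and -0.19 with a monocyte sum of at least 20. Of 32 genes of the G2 and M phases 29 were above 0, beside the same 47.5% of all genes. Their median was 0.26, and none was past 2-fold, beside 0.587% of all genes. Top2a read 364 and 483 CPM, Cenpe 62.2 and 100.1, and Mki67 287 and 378. The 22 S phase genes had a median of -0.02. Pattern recognition and Fc receptor genes had a median of -0.29 over 6 measured, which changed sign after thinning. Immediate early genes had a median of -0.20 over 8 measured, with 1 above 0 beside the same 47.5% of all genes. In each of these 2 lists 2 genes passed the count minimum only through control, so no direction is read from them. Monocyte genes outside the gate stayed near control, with a median of -0.07. Of 17, 1 was past 2-fold, Ifi30, beside 0.587% of all genes.

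Mll4-labelled members differed from control members in many more genes. Of 7318 genes measured, 587 (8.02%) lay past 2-fold, 446 higher (6.09%) and 141 lower (1.93%), and the median log2 ratio was 0.20. The split rests on the scaling: with median ratio scaling the median was -0.04, and 214 genes were higher and 300 lower. Without the basophil and mast signal, 505 of 7081 genes (7.13%) were past 2-fold, 370 higher (5.23%) and 135 lower (1.91%). Of the 587 genes, 250 or 42.6% were past 2-fold the same way in the other kept cells. Here too the share over all measured genes was not counted, so the overlap is not read as high or low.

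With Y-linked genes left out, the highest ratios included those of basophil and mast genes. Of the 8 measured, 7 passed the minimum of 50 counts only through the Mll4-labelled library, so no count or median of that list is given. Cma1, mast cell chymase, read 71.3 CPM with no UMI in control members, at least 104-fold higher by a floor of 3 counts over the control members; the exact interval of the fold, which also counts the error of the Mll4-labelled value, began at 84.1. Prss34, a basophil and mast cell protease, and Cd200r3, an activating receptor of the same cells, read 18.8 and 18.1 CPM with no UMI in control, at least 27.5-fold and 26.5-fold higher by the same floor, with intervals that began at 21.6 and 20.8. Ms4a2, the beta chain of the IgE receptor, read 0.46 CPM in control from 2 counts and 23.3 in Mll4-labelled members, a ratio of 51.1 (13.6 to 431). The signal was chosen on this list, so its loss when those cells are left out is no result.

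A further group of genes was high in Mll4-labelled members with or without those cells. Fn1, fibronectin, read 1.59 CPM (0.64 to 3.29) in control, 8.91 (6.01 to 12.7) in Mll3-labelled and 46.3 (38.7 to 54.8) in Mll4-labelled members, and 50.4 in those without the signal. Lpl, lipoprotein lipase, read 4.10, 12.5 and 65.0 CPM, and 71.7 in those without it. Ctsf, the protease cathepsin F, read 3.19, 5.94 and 54.9. Ncam1, a neural and natural killer cell adhesion molecule, read 1.14, 5.35 and 21.9. Their Mll4 log2 ratios were 4.19 for Fn1, 3.69 for Lpl, 3.74 for Ctsf and 3.42 for Ncam1, against 0.82, 0.76, 1.23 and 1.84 in the other kept cells and 0.095, 1.33, 2.86 and 0.98 in granulocyte progenitors. All 4 genes were named for their high Mll4 ratios and passed the count minimum only through the Mll4-labelled library. Their Mll3-labelled levels lay between the others, which that choice makes likely, so no order is read from them. Thinned to 2000 UMIs, Fn1 was seen in 1.1%, 1.4% and 6.2% of members and in 0.24% of control granulocyte progenitors, and unthinned in 3.2%, 8.3% and 12.8% of members.

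Lgals1, galectin 1, led the genes that were lower. It read 1045 CPM (1015 to 1076) in control, 1363 (1324 to 1403) in Mll3-labelled and 147 (133 to 162) in Mll4-labelled members. Its Mll4 log2 ratio was -2.82 in members, -2.52 without the basophil and mast signal and -1.79 in the other kept cells. With Hashtag1 only it read 979 CPM in control and 183 in Mll4-labelled members, and with Hashtag2 only 1110.1 and 99.5. So Lgals1 was lower in the Mll4-labelled library in every one of these subsets. Aif1, an actin-bundling protein of monocytes and macrophages, read 15.7, 16.6 and 1.74 CPM, and Mgst2, a microsomal glutathione transferase, 97.7, 79.9 and 17.0. Their Mll4 log2 ratios were -2.61 and -2.45 in members and 0.06 and 0.08 in the other kept cells. Ccnd1, cyclin D1, read 46.9, 45.2 and 8.0, with a ratio of -2.41 in members and -0.34 elsewhere. For Aif1, Mgst2 and Ccnd1 the ratio was thus lower in the members than over the other kept cells, a mixed pool, and that difference has no test. Aif1, Mgst2 and Ccnd1 were named for their low Mll4 ratios and passed the count minimum only through control. That choice favours a low level in members, so none particular to the members is read from them. Apoe (-2.52), Hist1h2bl (-2.75), Rapsn (-2.59), Susd3 (-2.43) and Clec11a (-2.38) were further genes with low Mll4 ratios.

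Monocyte genes outside the gate went both ways in Mll4-labelled members. Of 18 measured, 3 were past 2-fold higher and 2 lower, beside 6.09% and 1.93% of all genes. The list median was 0.10 against 0.20 over all genes. Klf4 read 28.0 CPM (23.3 to 33.4) in control, 23.2 (18.3 to 28.9) in Mll3-labelled and 63.3 (54.4 to 73.2) in Mll4-labelled members. Ms4a4c read 25.1, 31.5 and 58.4, and with Fn1 and Klf4 made up the 3 higher genes; without the basophil and mast signal Ms4a4c was at 0.95 and no longer past 2-fold, and the list median was 0.22. Fn1 passed the count minimum only through the Mll4-labelled library, and 3 of the 18 only through control. Pld4, a lysosomal nuclease of phagocytes and dendritic cells, read 45.1, 58.5 and 12.5, and Ccl9, a chemokine of myeloid cells, 150.3, 105 and 66.4. Ly6c2 read 1965, 1753 and 1379 CPM and Plac8 5066, 4221 and 3564, both lowest in the Mll4-labelled members, while Klf4 and Ms4a4c were highest there. With members thinned to 2000 UMIs the list median was 0.54.

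Transcription factors of the myeloid lineage had a median of 0.54, against 0.20 over all genes, with 15 of 18 above 0 against 65.0% of all genes. Id2 passed the count minimum only through the Mll4-labelled library. Cebpa, needed for the step to granulocyte and monocyte progenitors, read 69.3 CPM (61.7 to 77.5) in control, 43.7 (36.9 to 51.3) in Mll3-labelled and 199.6 (184 to 217) in Mll4-labelled members. Gfi1, a repressor on the neutrophil side, read 20.5, 11.9 and 65.0. Id2 read 7.06, 2.97 and 24.7 and was, with Klf4, Cebpa and Gfi1, past 2-fold higher, beside 6.09% of all genes. Without the basophil and mast signal 3 of 17 were, beside 5.23% of all genes, with a median of 0.42. Cebpa and Gfi1 were lower than control in Mll3-labelled members and higher in Mll4-labelled members. Their ratios in the other kept cells had the same signs, at -0.47 and 1.39 for Cebpa and -0.43 and 1.92 for Gfi1. Spi1, which encodes PU.1, read 238, 246 and 262 CPM, within 0.14 of control on the log2 scale. Runx1 read 115, 125 and 203 and Myb 353, 256 and 315.

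Cytokine receptors had a median of 0.40, and 14 of 17 lay above 0, beside the same 65.0% of all genes. Kit and Il1rl1, the interleukin 33 receptor of mast cells, were past 2-fold higher, beside 6.09% of all genes. Neither was without the basophil and mast signal, where Kit had a ratio of 0.74. Il1rl1 passed the count minimum only through the Mll4-labelled library, and 1 other of the 17 only through control. Csf2ra, the alpha chain of the receptor for granulocyte and macrophage colony stimulating factor, read 88.4, 77.3 and 131 CPM, and Ifngr1, of the interferon gamma receptor, 204, 171 and 372. Csf3r, the receptor for granulocyte colony stimulating factor, was lower than control in both, at 38.5, 26.5 and 24.3.

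Genes of phagocyte function were described as 4 lists. Of 7 measured pattern recognition and Fc receptor genes 6 lay below 0 and 1 above in Mll4-labelled members, beside 65.0% of all genes above 0. The whole list summed to 1527, 1584 and 964 CPM. Tlr2 was past 2-fold higher at 7.97, 9.51 and 19.1 CPM. Fcer1g, the shared signalling chain of Fc receptors, was past 2-fold lower at 546, 611 and 217, as was Clec4d. Tlr2 passed the count minimum only through the Mll4-labelled library and 2 of the 7 only through control, so no direction is read from the split. Of the 6 phagocyte oxidase genes Cyba was past 2-fold lower, at 374, 379 and 176 CPM, but not without the basophil and mast signal (-0.96), and Cybb, its partner, was at 99.5, 80.8 and 131. Among 12 chemokine receptor and adhesion genes, the integrin chain Itgal read 49.4, 35.1 and 10.8 CPM. Itgam, which encodes CD11b, read 13.4, 9.21 and 5.91, past 2-fold lower with all members but at -0.95 without the signal. Of the 12, Cxcr2 passed the count minimum only through the Mll4-labelled library and 3 only through control. Lysosome genes had a median of 0.19 beside 0.20 over all genes, and Cd63, a membrane protein of lysosomes and granules, was past 2-fold higher at 42.4, 37.7 and 131 CPM. The medians of the receptor, oxidase and adhesion lists were -0.13, -0.15 and 0.36, and that of the receptor list was -0.46 without the basophil and mast signal.

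Primary granule genes had a median of 0.15 in Mll4-labelled members, with 6 of 11 above 0 beside 65.0% of all genes. Ctsc, the protease that activates granule enzymes, read 86.8, 66.3 and 222 CPM, and Nkg7 305, 152 and 122. With median ratio scaling this list's median was -0.095 and the ratio of Elane -0.052, so no direction is read from them. Immediate early genes had a median of 0.61 against 0.20 over all genes, with 9 of 10 above 0 beside 65.0% of all genes. Fosb and Klf2, 2 of the 10, passed the count minimum only through the Mll4-labelled library. Klf2 read 3.87, 7.13 and 32.3 CPM, Jun 85.7, 59.1 and 247, and Klf6 13.2, 12.8 and 46.6. Their Mll4 ratios were 2.77, 1.51 and 1.74 in members and 1.89, 1.0 and 1.67 in the other kept cells. Cell cycle lists did not stand apart, with medians of 0.01 over 22 S phase genes and 0.20 over 32 genes of the G2 and M phases.

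**Figure D5:**
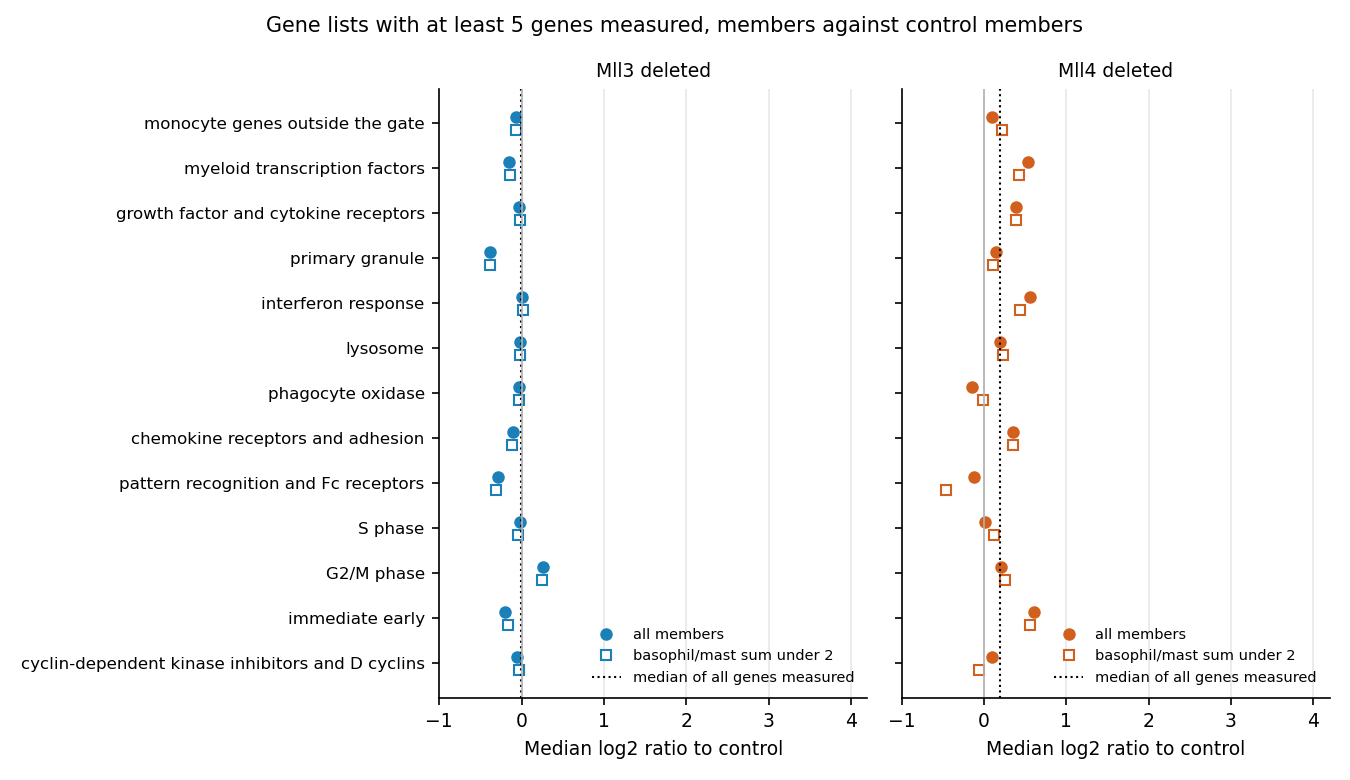
Median log2 ratio to control members of each gene list with at least 5 genes measured, for Mll3-deleted members (left) and Mll4-deleted members (right). Filled circles are all members, open squares those with a basophil and mast sum under 2, and the dotted line is the median of all genes measured; lists with many genes measured only through the Mll4-deleted library (basophil and mast, later neutrophil, stem and multipotent) are left out. Among the filled circles the immediate early list at 0.61 for Mll4 and the primary granule list at -0.38 for Mll3 are farthest from that line on either side.

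Neutrophil genes in members call for the background beside them. S100a8, a gate gene that neutrophils make in large amounts, read 253, 225 and 1480.0 CPM in control, Mll3-labelled and Mll4-labelled members. After thinning, 39.2%, 34.7% and 88.5% of members had a UMI of it, but so did 78.6%, 76.2% and 98.4% of the B-lineage cells of the same libraries, which do not make it. Unthinned shares were 98.9%, 97.2% and 99.8% in members and 98.6%, 97.5% and 99.2% in B-lineage cells, whose median depths were 4076, 4121 and 1974 UMIs. In erythroid cells, which also lack it, the thinned shares were 31.0%, 28.2% and 66.2%. The members thus lay between these background populations, and no expression or difference is read from S100a8. The same Mll4-labelled members were higher in Chil3, at 42.6, 33.3 and 147 CPM. Wfdc21 read 6.38, 9.51 and 60.2 CPM, but passed the count minimum only through the Mll4-labelled library, so no difference is read from it. Chil3 and Wfdc21 were both abundant in the other kept cells of control, at 1998 and 504, and their part in free RNA was not tested.

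Markers of other cell types differed in how they compared with the other kept cells. B-cell genes outside the gate summed to 204, 248 and 191 CPM, of which Ighm gave 153, 190 and 151, against 315, 478 and 243 in the other kept cells, and Ms4a1 had no UMI in members of any library. The list of 12 erythroid genes summed to 110.2, 118 and 109 CPM against 3300.2, 3614 and 1658 in the other kept cells. Macrophage genes summed to 15.9, 11 and 18.8 CPM against 26.4, 20.2 and 37.1, with Cd5l, Mertk, Spic and Timd4 at 0 throughout. Dendritic cell genes were higher in members, at 995, 976 and 749 CPM against 414, 373 and 477, of which Cst3, also made by monocytes, gave 884, 889 and 617, and Siglech and Irf4 were at 0. MHC class II pathway genes outside the gate were also higher, at 225, 236 and 178 against 90.3, 73.0 and 101. Megakaryocyte genes summed to 129, 132 and 187 against 242, 231 and 344, of which Rap1b gave 122, 128 and 168, and Gp6 and Ppbp were at 0.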

How the data were processed

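The deposited files hold UMI counts per feature and barcode, not normalized, made with Cell Ranger 6.1.2 per the file headers and the submitters' processing notes, which also name the build mm10. Each library lists 32285 genes, 13 surface antibodies and 2 hashtags, from 10x Genomics 3′ version 3.1 libraries per the labels' protocols. How barcodes were called as cells is not given in the sources used here. Of the gene identifiers 32158 were found in GENCODE M21.

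Members and gene lists were chosen with earlier results of these data known. Cells were filtered and gated as the report states. Counts of members were summed for each library and scaled to CPM, with exact Poisson intervals. Log2 ratios used a pseudocount of 1 CPM and genes with at least 50 counts in either library, and past 2-fold means an absolute log2 ratio of at least 1. Intervals of folds are exact conditional binomial, and of shares exact Clopper-Pearson. With 1 library a group no test was run and no p-value is given. Genes named are the 10 highest and 10 lowest ratios in each comparison whose intervals do not overlap, leaving out mitochondrial, Y-linked and Xist genes, the 20 genes highest in members over other kept cells, the gate genes and members of 24 lists. Of 345 list genes, 2 had no row in the feature lists and were not analysed here. Shares of cells with a UMI were taken after a seeded thinning to 2000 UMIs, which left out 27 Mll4-labelled, 1 Mll3-labelled and 0 control members, and 68, 43 and 32 B-lineage cells.

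Doublets were not removed in the main analysis. As an alternative, the highest Scrublet scores (scanpy 1.11.5, expected rate 0.06) were removed, 0.8% for every 1000 barcodes. Hashtag thresholds came from 2-component Gaussian mixtures. Per-gene interval and ratio steps were tested on simulated counts. Raw counts were not corrected for free RNA. Values of 2 list genes are not reported here.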

Additional observations from a re-analysis of the deposited data

How the results depend on the processing

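Of 1476 values recomputed under an alternative, 1191 stayed within a range set around the main value and 274 moved outside it. A further 11 reversed sign where the range excluded 0. The range came from counting error for shares, genes and lists. For gene counts it was a fixed ratio, and for the median of all genes a fixed width. Where a range held 0, a change of sign was not counted as a reversal. The log2 ratio of the Mll4-labelled member share to control stayed above 0 throughout. It was 1.38 with a monocyte sum of at least 5, 3.40 with at least 20, 2.05 with at least 5000 UMIs a cell, 1.26 after thinning before the gates and 2.35 without neutrophil granule cells in the denominator. It was 2.04 with Hashtag1 only, 1.30 with Hashtag2 only, and 1.15 and 1.36 with basophil and mast sums under 2 and under 5, the last 2 chosen after seeing the data. The Mll3-labelled ratio was 0.25 with Hashtag1 only and -0.42 with Hashtag2 only. The cause of these movements was not tested.

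Counts of genes past 2-fold moved with the settings. With a pseudocount of 5 CPM 15 genes were lower for Mll3 and 93 for Mll4. With at least 100 counts, which leaves fewer genes, 14 were lower for Mll3, and 283 were higher and 84 lower for Mll4. With no minimum 164 were higher and 262 lower for Mll3, and 1098 and 404 for Mll4. Median ratio scaling gave 214 higher and 300 lower for Mll4. Thinned members, with fewer counts, gave 4 higher and 6 lower for Mll3 and 31 lower for Mll4. A monocyte sum of at least 20 gave 8 higher and 11 lower for Mll3 and 65 lower for Mll4. Hashtag1 only gave 92 lower and Hashtag2 only 286 higher for Mll4.

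The Mll4 median of the primary granule list was -0.095 with median ratio scaling, 0.012 as a mean over cells, 0.056 after thinning, 0.23 with a monocyte sum of at least 20, 0.047 with Hashtag1 only and -0.015 with Hashtag2 only. Its Mll3 median was -0.11 after thinning, -0.19 with a sum of at least 20 and -0.29 with Hashtag1 only. The Mll4 median of the monocyte list was 0.54 after thinning. Median ratio scaling also reversed the Mll4 median of all genes (-0.040), that of the lysosome list (-0.045) and the ratio of Elane (-0.052). The Mll3 median of the pattern recognition list was 0.24 after thinning, 0.18 with a sum of at least 20 and 0.083 with Hashtag2 only. After thinning, the Mll3 ratio of Kmt2c was 1.10 and the Mll4 ratios of Kmt2d and Ms4a6c were 0.054 and 0.011. Thinned values of low genes rest on fewer counts in all 3 libraries.

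No paired analysis was possible because each group has 1 library, so the groups share fewer than 2 replicate numbers.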

Other observations

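The upper limits of the rule removed different cells from each library. Cells with a monocyte sum of at least 10 per 10000 numbered 207 in control, 164 with the Mll3 label and 558 with the Mll4 label. The MHC class II limit took out 12, 10 and 75 of them, the neutrophil limit 4, 4 and 33, the B-lineage limit 4, 7 and 6, and the Pf4 limit none. Monocyte-gene cells with MHC class II or neutrophil reads were thus counted outside the members more often by number in the Mll4-labelled library. The 5 cells of the Mll3/4-labelled library that met the rule had a median of 37872 UMIs and a median monocyte sum of 15.5 per 10000.

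Doublet scores removed 7 of 189 control members, 3 of 145 Mll3-labelled members and 5 of 445 Mll4-labelled members. Members carrying both hashtags numbered 4, 2 and 14, and 9 of the 14 Mll4-labelled ones had a basophil and mast sum of at least 2 per 10000. Among Mll4-labelled members the share with that signal was 29.3% with Hashtag1 only (79 of 270) and 38.5% with Hashtag2 only (62 of 161).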
